A study of Mus musculus with 74 samples.

Results

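GPS2 peaks that coincided with no PPARα peak were a small group, 2126 of the 27842 GPS2 peaks (7.64%) of a table in which GPS2 occupancy was counted in livers with and without PPARα. GPS2 (G protein pathway suppressor 2) is a subunit of the corepressor complex built on NCOR and SMRT, and PPARα (peroxisome proliferator-activated receptor alpha) is the nuclear receptor that drives hepatic fatty acid oxidation. A peak was taken when it shared not 1 bp with any peak of the 8 PPARα lists from wild type livers, and the other 25716 peaks served for comparison. The table pooled peaks called in 3 Ppara WT and 3 Ppara KO livers by chromatin immunoprecipitation and sequencing (ChIP-seq). Beside it stood ChIP-seq of GPS2, NCOR, H3K4me3, H3K27ac and RNA polymerase II (Pol II) and RNA-seq from liver knockouts of Gps2 or Ncor. All mice were C57BL/6, 8 to 12 weeks old and fed chow.

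The Ppara KO mice lacked PPARα in the whole body, whereas the liver knockouts (LKO) of Gps2 were made with Cre under the albumin promoter, which acts in hepatocytes, and their controls (called WT) carried the floxed Gps2 alleles without Cre. The Ncor LKO line was also liver-specific. The labels do not say whether a library came from 1 mouse or several, so each p-value measures the spread between libraries. The targeted genes went with the labels: Gps2 RNA was read at 259, 249, 263 and 238 normalised counts in the 4 WT livers and at 200, 155, 144 and 204 in the 4 LKO livers, so the groups did not overlap. In whole liver, fewer cells of a type and less RNA per cell cannot be told apart. The fall in Gps2 RNA was -0.53 ± 0.11 (log2, SE; edgeR adjusted p = 0.0021), and which part of the gene these reads cover relative to the deletion was not tested. PPARα peaks numbered 8975 and 11274 in the Ppara WT livers and 131 and 92 in the KO livers. The summed RNA of 20 hepatocyte markers lay between 2760000 and 2820000 normalised counts in WT liver, against 3160 to 3210 for the macrophage markers.

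The 6 GPS2 libraries held 13 to 15.4 M mapped tags each, and 2 of them stood apart. The WT 3 list held 20818 peaks with a mean width of 303 bp, against 11339 and 11572 peaks in WT 1 and WT 2, and the mean widths in the other 5 lists were 181 to 187 bp. The KO 3 list held 806 peaks against 7479 and 5450 in KO 1 and KO 2. The share of all tags that fell in the table's rows was 2.55, 2.42 and 4.39% in WT 1 to 3 and 2.06, 1.87 and 1.07% in KO 1 to 3. Results that rest on WT 3 and KO 3 are therefore also given without them.

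Corepressors such as NCOR, SMRT and GPS2 do not bind DNA by themselves and reach chromatin through transcription factors, among which nuclear receptors recognise AGGTCA half-sites, PPARα with its partner RXR as a direct repeat with 1 base between (DR1). Promoters of active genes carry H3K4me3 and H3K27ac and are often rich in GC boxes. The genes for tRNAs have their promoter inside the transcribed stretch, in the A and B boxes that the factor TFIIIC recognises, and are transcribed by RNA polymerase III. Immediate early genes, such as the AP-1 subunits, are transcribed within minutes of a stimulus.

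Sequences of 9 peaks are shown as examples from tRNA genes and from promoters. The first set holds stretches of 94 bases around a B box (capitals, GTTCGANNC, searched on both strands) in 4 of the named peaks, given by the gene whose start is nearest. The peak nearest Trim7 lay on a tRNA-Ala gene and that nearest Psma3 on a tRNA-Lys gene, whereas those nearest Olfr1423 and Eef2k were annotated as intergenic. All coordinates are those of mouse build mm9, with the strand in brackets.
Olfr1423, chr19:12086418-12086511 (+): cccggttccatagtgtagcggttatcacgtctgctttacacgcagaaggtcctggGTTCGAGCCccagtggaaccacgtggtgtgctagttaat
Trim7, chr11:48647913-48648006 (-): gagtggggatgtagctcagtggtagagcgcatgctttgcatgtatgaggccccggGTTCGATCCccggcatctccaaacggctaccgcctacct
Eef2k, chr7:127978975-127979068 (-): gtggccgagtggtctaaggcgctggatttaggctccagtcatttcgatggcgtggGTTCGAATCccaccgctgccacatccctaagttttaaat
Psma3, chr12:72070089-72070182 (-): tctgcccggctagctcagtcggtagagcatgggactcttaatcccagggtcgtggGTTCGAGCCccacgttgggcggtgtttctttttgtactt

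The second set holds the 80 bases upstream of the annotated start of 5 genes whose promoters carried such a peak, with E-boxes (CACGTG), GC boxes (GGGCGG or its reverse complement), CCAAT boxes (or their reverse complement) and TATA boxes (TATAAA) in capitals. The peak covered 57 of the 80 bases at Dusp1, 66 at Zfp36, 57 at Tat, 80 at Junb and 40 at Angptl4, always the part nearest the start. The E-box of Dusp1, the GC box of Angptl4 and the CCAAT box of Tat farther from the start therefore lie outside it. The reversed CCAAT box of Tat (ATTGG) lies inside. Dusp1 encodes a MAP kinase phosphatase, Zfp36 an mRNA-destabilising protein, Tat tyrosine aminotransferase, Junb an AP-1 subunit and Angptl4 an inhibitor of lipoprotein lipase.
Dusp1, chr17:26645465-26645544 (-): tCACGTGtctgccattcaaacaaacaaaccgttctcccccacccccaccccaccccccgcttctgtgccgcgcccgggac
Zfp36, chr7:29164275-29164354 (-): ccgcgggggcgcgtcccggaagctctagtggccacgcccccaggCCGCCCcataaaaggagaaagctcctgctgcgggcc
Tat, chr8:112514257-112514336 (+): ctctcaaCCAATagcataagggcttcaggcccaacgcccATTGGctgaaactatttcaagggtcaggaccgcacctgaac
Junb, chr8:87502618-87502697 (-): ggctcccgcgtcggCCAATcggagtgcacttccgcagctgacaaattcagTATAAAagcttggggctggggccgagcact
Angptl4, chr17:33918521-33918600 (-): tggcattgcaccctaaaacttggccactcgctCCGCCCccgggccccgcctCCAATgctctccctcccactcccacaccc

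Most of the 2126 peaks were weak and seen once. A total of 1635 (76.9%) were called in only 1 of the 6 GPS2 lists, against 12415 (48.3%) of the 25716 peaks with PPARα, and 491 were called in 2 or more lists. Of those 491, 209 were in 2 lists, 93 in 3, 73 in 4, 66 in 5 and 50 in all 6. Single-list peaks came from every library, 292, 445 and 540 from WT 1 to 3 and 186, 134 and 38 from KO 1 to 3. The median GPS2 level, in tags per 10000000 mapped tags within the peak, was 5.69 in WT and 3.69 in KO liver, against 9.49 and 5.14 at the peaks with PPARα. The peaks were also narrower, with a median of 185 bp against 303 bp, and WT 3, the library with wide peaks, held 8325 of the single-list peaks with PPARα.

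Lacking an overlap did not mean being far from PPARα. The nearest wild type PPARα peak was at a median distance of 381 bp (quartiles 88 and 2261 bp), 578 peaks lay within 100 bp of one and 1355 (63.7%) within 1000 bp. Only 206 (9.69%) were more than 10000 bp away, and of these 92.2% were called in a single GPS2 list. In the LKO livers of either line, 607 of the 2126 peaks (28.6%) overlapped a PPARα peak in at least 1 of 6 lists, which individually covered 7.1 to 9.83% of them, against 84.9 to 90.3% of the other GPS2 peaks. Just inside and outside the rule, the median WT level was 5.69 at peaks in no PPARα list, 6.37 at the 1153 peaks in 1 list and 15.8 at the 5439 peaks in all 8.

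By position, 895 of the peaks (42.1%) lay within 1000 bp of a gene start, 58 (2.73%) were annotated to a tRNA gene and the remaining 1173 (55.2%) were distal. Among the peaks with PPARα the same shares were 28.2%, 0.128% (33 peaks) and 71.6%. The mix shifted with recurrence: of the 491 peaks in 2 or more lists, 326 (66.4%) were near a gene start and 48 (9.78%) at a tRNA gene, against 29.5% and 0.233% of the recurrent peaks with PPARα. SINE B2 elements, short repeats derived from tRNA, held 39 of the peaks (1.83% against 0.478%), and snRNA repeats held 4 (0.188% against 0.0467%). Recurrent peaks and peaks at tRNA genes were set apart after their values had been seen, so these shares are descriptions.

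**Figure D1:**
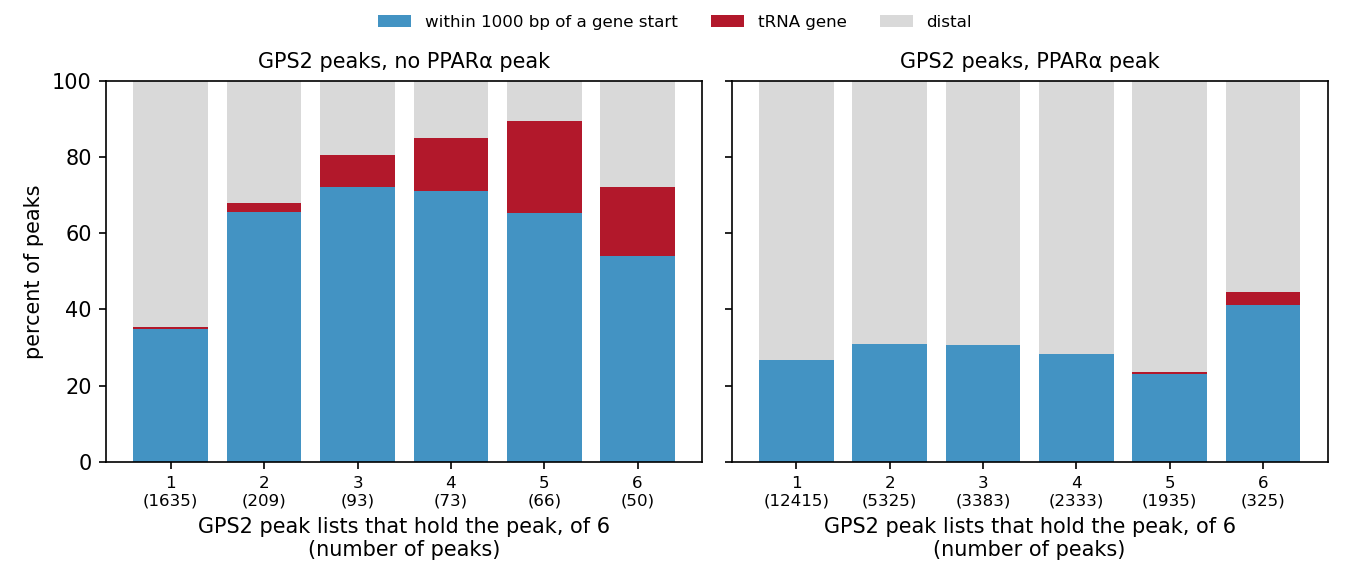
Percent of GPS2 peaks (vertical axis) near a gene start, at a tRNA gene or distal, by the number of the 6 GPS2 peak lists that hold the peak (horizontal axis, number of peaks in brackets), without a PPARα peak (left) and with one (right). Distal peaks made up most of the 1635 single-list peaks without PPARα, and tRNA genes reached 24.2% of the 66 peaks found in 5 lists.

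The peaks carried promoter marks, and fewer of them than of the peaks with PPARα overlapped NCOR. H3K4me3 peaks of the 2 Gps2 WT livers covered 58.5 and 57.2% of them, against 47.1 and 44.5% of the peaks with PPARα, and H3K27ac peaks covered 76.4 and 75.3% against 87.5 and 86.8%. Near gene starts H3K4me3 was found at 98.5 and 98.4% of the peaks. In both livers at once it was at 98.2% there, against 96.9% of the peaks with PPARα. At distal sites the shares were 22.8% and 21.4%. Pol II covered similar shares over all positions, 37.3% (95% exact binomial interval 35.3 to 39.4) and 38.6%, and 71.2% against 77.6% near gene starts. NCOR peaks of the 3 Ppara WT livers, in contrast, covered 27 to 27.3%, against 89.3 to 89.4% of the peaks with PPARα, and 39.1% against 95.2% overlapped an NCOR peak in at least 1 of the 3. The GPS2 list from the separate Gps2 WT liver recovered 635 of the 2126 peaks (29.9%, interval 27.9 to 31.9) but 89.7% of the others, and it recovered 57.2% of the 491 recurrent ones. Of the 52 GPS2 peaks called in Gps2 LKO liver 0 overlapped these peaks, which allows a share of up to 0.173%. These intervals cover counting error only.

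Half-sites for nuclear receptors were found less often in these peaks. The peaks were chosen for lacking PPARα, which binds such sites, so a lower share can follow in part from the choice. In windows of 200 bp at the peak centre, an AGGTCA half-site on either strand was present in 12.9% of 2117 peaks (interval 11.5 to 14.4) and in 28.7% of 25693 peaks with PPARα, since 9 and 23 peaks lay on unplaced sequence and could not be read. The difference was present within kinds of position, 6.38% against 13.3% near gene starts and 18.1% against 34.8% at distal sites. A DR1 with at most 1 mismatch was found in 0.472% against 2.02%, the HNF4 sequence CAAAGTCCA in 0.425% against 1.76% and the FOXA sequence TGTTTAC in 2.79% against 6.19%. The AP-1 site TGANTCA was present in 4.53% against 7.1%.

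Some other letters were found more often over all windows. The GC box GGGCGG was in 23.8% against 17% of windows, whereas near gene starts the shares were 47.4% and 46.9%. TATAAA occurred in 8.6% against 6.56% overall and in 6.94% (interval 5.36 to 8.8) against 3.82% near gene starts, where CACGTG was at 3.47% against 5.98% and CCAAT at 20.1% against 19.0%. The YY1 sequence AAGATGGCG was in 1.46% against 0.79% overall and in 3.24% (interval 2.18 to 4.63) against 2.67% near gene starts. The B box GTTCGANNC was in 4.68% (3.82 to 5.66) against 0.673%. A match says only that these letters stand in the window.

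**Figure D2:**
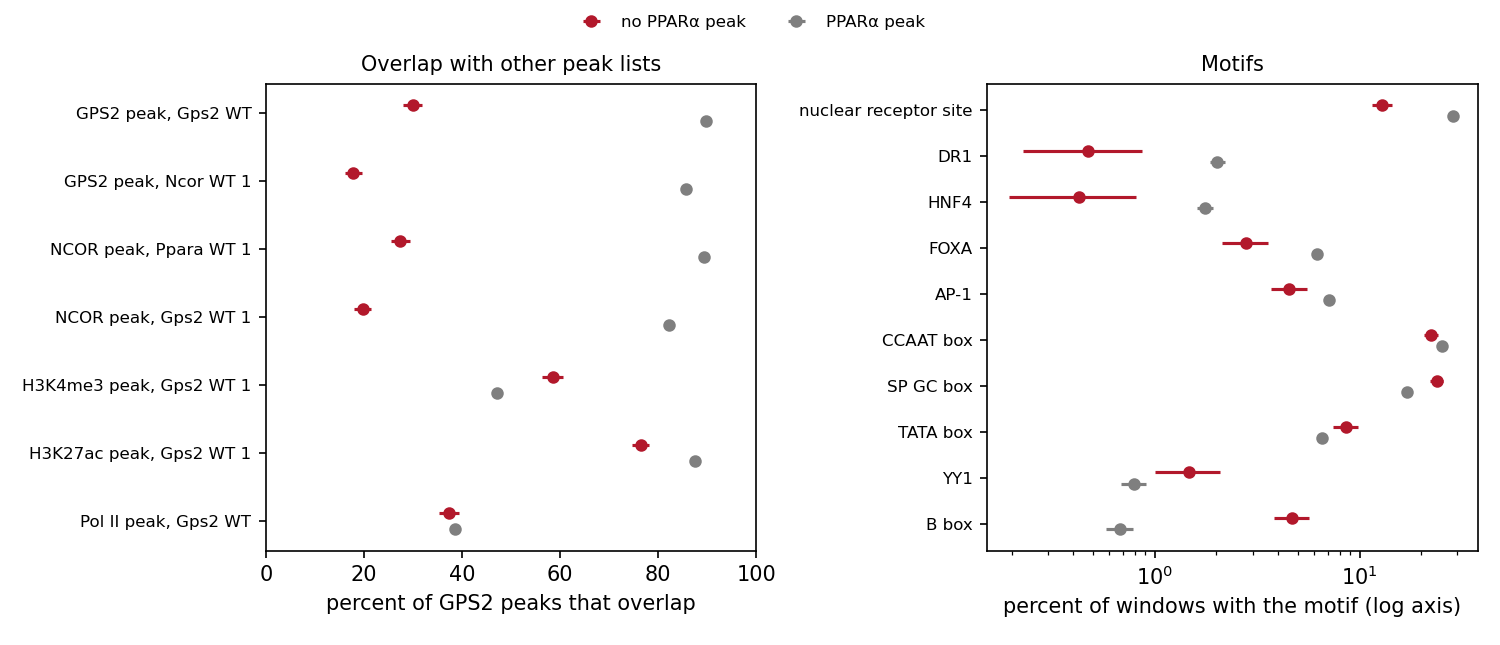
Left, percent of GPS2 peaks that overlap a peak of each list; right, percent of 200-bp windows that hold each motif (log axis). Points are the 2126 peaks without a PPARα peak (red) and the 25716 with one (grey), and bars are 95% exact binomial intervals; H3K4me3, GC, TATA, YY1 and B boxes lie higher in the red points and NCOR and half-sites lower.

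The 58 peaks at tRNA genes were the strongest kind. Their WT level ran from 3.46 to 31.0 with a median of 17.6, against 6.76 near gene starts and 5.11 at distal peaks. They bore 20 different amino acid labels, 23 lay on chromosome 13 and 13 on chromosome 11, 44 (75.9%) held a B box and 48 were called in 2 or more lists. The class holds annotated tRNA genes only. A B box was also in 23 peaks near gene starts (2.57%, against 0.937% with PPARα) and in 32 distal peaks (2.75%, against 0.456%). On chromosome 13 between 21000000 and 24000000, a stretch chosen after its peaks had been seen, 41 of 92 GPS2 peaks (44.6%) lacked PPARα, 23 of them at tRNA genes. H3K4me3 covered 51 of the 58 in both WT livers, whereas Pol II covered 4 (6.9%) and the GPS2 list of the Gps2 WT liver covered 13 (22.4%). The 33 peaks at tRNA genes that did overlap PPARα had a median WT level of 20.6, and 63.6% held a B box. Reads from near-identical tRNA gene copies may be placed on another copy or be discarded, so the level at 1 tRNA gene is uncertain.

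GPS2 occupancy was then compared between Ppara KO and WT livers, which asks whether GPS2 needed PPARα at places where no PPARα peak was seen. The rows were pooled from lists of 11339, 11572 and 20818 peaks in WT and 7479, 5450 and 806 in KO. Lower KO values can follow in part from this choice of rows, and how far they do was not tested. No single peak of the 2126 passed the test in either direction (edgeR quasi-likelihood test on counts scaled to all mapped tags, Benjamini-Hochberg over 27842 rows; smallest adjusted p = 0.104), where 76 of all rows (0.273%) were lower in KO and 0 (0.0%) higher. At an unadjusted p under 0.05, 153 of the peaks (7.2%) were lower, against 23.0% of all rows, and 4 were higher, against 0.0251%. With TMM scaling 0 were lower (against 0.097% of all rows) and 4 higher (0.188%, against 0.0539%). With DESeq2 0 were lower (against 0.0251%) and 1 higher (0.047%, against 0.018%). The 4 higher with TMM lay far from gene starts, nearest Vmn1r77, Gm21119, Ppp1r3b and Serpina1e, and Gm21119 was the 1 called by DESeq2. The level in all 3 KO livers was below that in all 3 WT livers at 454 peaks (21.4%), where 31.3% of all rows had this order, and above it at 16 (0.753%, against 0.14%). Among the 143 peaks with a mean of at least 20 tags, 80 (55.9%) had all KO livers below all WT livers, against 47.0% of all such rows. The reverse order was seen at 0 of them. At an unadjusted edgeR p under 0.05, 16 of the 143 (11.2%) were lower, against 39.2% of all such rows. Over all positions the peaks held fewer tags than those with PPARα (median 6.33 against 10.0), which leaves the test less able to call a change.

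The median log2 difference (KO over WT) was -0.76 at peaks without PPARα and -0.94 at the others on the total-tag scale, and 0.15 and -0.0013 with TMM, which moved the median of all rows from -0.93 to 0.01. Directions in this comparison therefore hold on the total-tag scale. Without WT 3 the medians were -0.58 and -0.58, and without WT 3 and KO 3, a choice made after seeing the libraries, they were -0.44 and -0.35. In that last setting 11 of the peaks (0.517%) passed the test as lower, against 0.399% of all rows, and 0 as higher, against 0.00359%. The lower ones were the peaks nearest Smim4, Trim25, Ccdc13, Ncoa7, Zmiz1, Gm29669, Eef2k, Plxdc1, Ilf2, Zfp36 and Olfr1423. By kind the medians were -0.56 near gene starts, -0.86 at tRNA genes and -0.94 at distal peaks (0.33, 0.04 and -0.01 with TMM), and without WT 3 and KO 3 they were -0.32, -0.90 and -0.55. All 58 tRNA peaks had a negative value on the total-tag scale, also without WT 3 and KO 3, and 37 of 58 had a positive one with TMM.

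A measure free of the scaling compared both sets of peaks within each library. The peaks without PPARα took 5.72, 6.16 and 4.11% of the table's tags in WT 1 to 3 and 5.62, 5.89 and 7.17% in KO 1 to 3. The mean shares were 5.33% ± 1.08 in WT and 6.23% ± 0.83 in KO (SD, n = 3 each), and the groups overlapped. The difference of 0.9 percentage points did not exceed the spread between libraries (exact permutation test, two-sided, p = 0.5, where 0.1 is the smallest p that 3 against 3 can give). The lowest value was that of WT 3 and the highest that of KO 3, and without them the difference was -0.185 percentage points (exact permutation p = 0.667). When only the PPARα lists of the Ppara line counted, a wider set of peaks, the difference was 4.32 percentage points and the groups did not overlap (exact permutation p = 0.1).

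**Figure D3:**
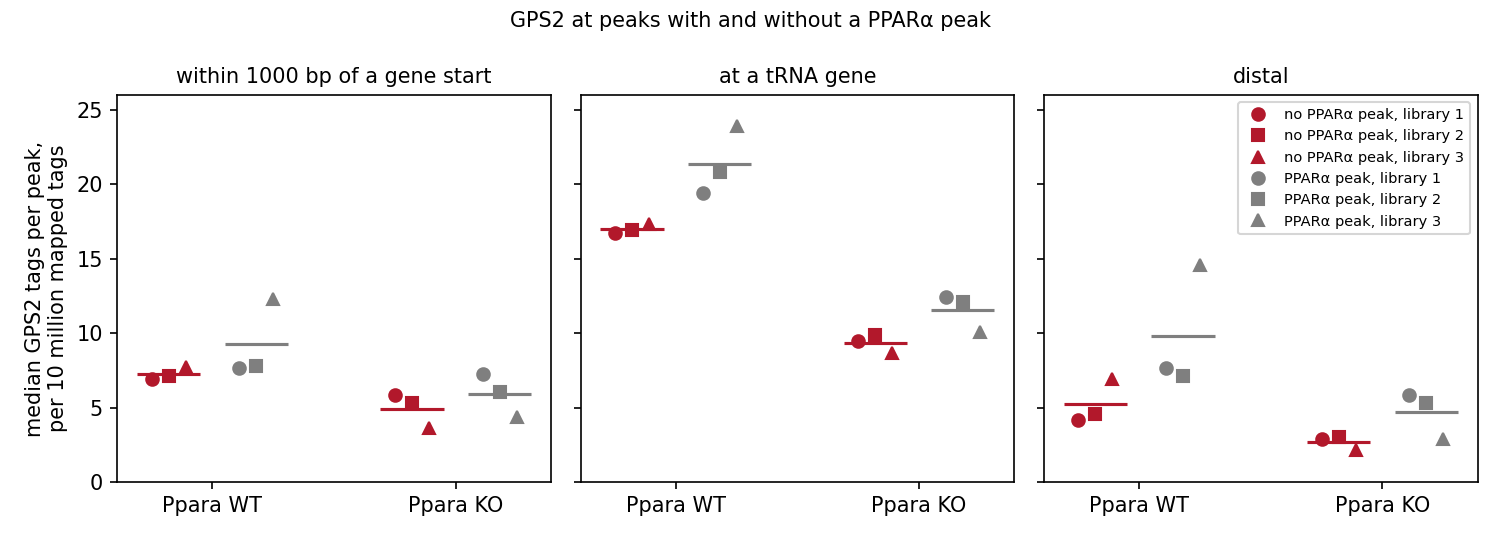
Median GPS2 tags per peak, per 10000000 mapped tags, in each of 3 Ppara WT and 3 Ppara KO libraries (symbols, libraries 1 to 3), for peaks without (red) and with (grey) a PPARα peak, by position. Lines are means of the 3 libraries; at tRNA genes without PPARα the medians were 16.7 to 17.3 in WT and 8.65 to 9.84 in KO on the total-tag scale, an order that 37 of the 58 single peaks reversed with TMM.

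Strong peaks near gene starts were at Dusp1, Zfp36, Malat1, Tat and Fasn. They were chosen by their mean WT level, which favours high WT values in the comparison with KO. At Dusp1 (chr17:26645219-26645521, promoter) the levels were 52.0, 35.8 and 47.7 in WT and 30.6, 27.2 and 22.4 in KO. The 3 KO livers were below the 3 WT livers, and the test was not passed (log2 difference -0.75 ± 0.51, SE; edgeR adjusted p = 0.298).

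Zfp36 (chr7:29164060-29164340, promoter) read 52.7, 39.7 and 40.8 in WT and 24.0, 18.2 and 15.1 in KO, with no overlap. The log2 difference was -1.21 ± 0.52, which missed the threshold (edgeR adjusted p = 0.177) except without WT 3 and KO 3 (adjusted p = 0.0044). Malat1, a nuclear long noncoding RNA, had 44.4, 39.7 and 40.8 against 31.3, 28.0 and 24.5, and Tat, 1982 bp from the nearest PPARα peak, had 53.4, 30.6 and 34.6 against 23.3, 25.7 and 23.8. At both the groups stayed apart. At Fasn, the fatty acid synthase gene, the levels of 57.6, 18.9 and 27.7 in WT overlapped the 21.1, 23.5 and 31.0 in KO, and WT 1 was far above the other 2.

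Away from gene starts the strong peaks, also chosen by their mean WT level, included small RNA genes. The peak at a tRNA-Ala gene near Trim7 (chr11:48647823-48648125) read 31.2, 29.9 and 29.2 against 13.8, 20.4 and 13, and the groups stood apart. The intergenic peak nearest Olfr1423 (chr19:12086084-12086543), whose sequence above holds a B box, read 31.2, 35.8 and 28.5 against 9.47, 22.7 and 14.4. Near Sirt4 a U4 snRNA gene (chr5:115939406-115939710) had 31.9, 30.6 and 31.6 in WT and 30.6, 20.4 and 10.8 in KO. Here KO 1 reached the WT level, so the groups touched at 30.6.

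The 3 smallest unadjusted p-values among peaks of at least 20 tags with separate groups, none past the threshold after adjustment, belonged to sites near Plxdc1, Eef2k and Ncoa7. The tRNA-Cys peak near Plxdc1 (chr11:97849466-97849768) read 20.8, 32.5 and 33.1 in WT and 10.9, 11.3 and 7.93 in KO, a log2 difference of -1.51 ± 0.56 (edgeR adjusted p = 0.153). The peak at -7261 bp from Eef2k had 22.9, 29.3 and 29.2 against 12.4, 6.81 and 10.8, and that at -7800 bp from Ncoa7 had 22.2, 28.6 and 25.4 against 8.74, 6.05 and 13.7. The choice of these 3 required separate groups. The Eef2k peak holds the B box shown above, and all 3 peaks passed the test without WT 3 and KO 3 (edgeR adjusted p = 0.0327, 0.0118 and 0.000955). No peak of at least 20 tags had all KO livers above all WT livers.

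**Figure D4:**
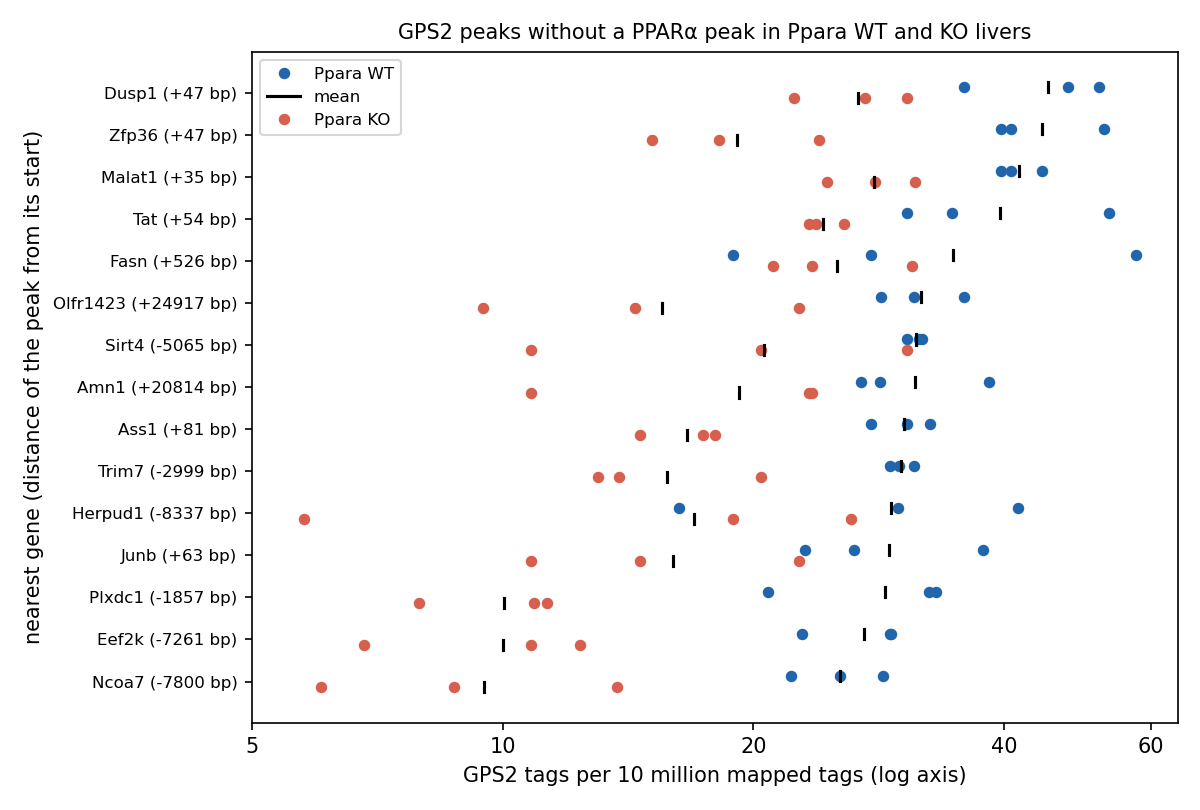
GPS2 tags per 10000000 mapped tags (log axis) at named peaks without a PPARα peak, each row a peak with its nearest gene and distance; dots are 3 Ppara WT (blue) and 3 Ppara KO (red) libraries and black marks their means. At Zfp36 the WT libraries sit between 39.7 and 52.7 and the KO libraries between 15.1 and 24.0 on the total-tag scale. Of the 50 named peaks 31 change sign with TMM, and most were chosen by their WT level.

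Genes of 18 lists were looked up among those with a start within 1000 bp of a peak without PPARα. Such a peak was near 838 of all 14583 genes in the RNA data (5.75%). The immediate early and AP-1 list had 9 of 23 genes (39.1%), namely Atf3, Dusp1, Egr1, Ier2, Jun, Junb, Klf10, Myc and Zfp36. Lipogenesis had 6 of 20 (Acly, Fasn, Gpam, Lpcat3, Pnpla3 and Srebf1), the hepatocyte markers 5 of 20 and the circadian clock 4 of 19 (Bhlhe40, Ciart, Clock and Dbp). Cytosolic ribosomal proteins had 12 of 79, PPARα targets 6 of 39, the respiratory chain 5 of 76 and the proteasome 1 of 34. None of the macrophage, stellate, cholangiocyte or lymphocyte markers had one, and 2 of 16 endothelial markers did. Peaks with PPARα were near 22 of the 39 PPARα target genes and 7 of the 23 immediate early genes, and near 41.8% of all genes. They were also near 14 of 20 lipogenic genes, 10 of 20 hepatocyte markers, 14 of 19 clock genes and 60 of 79 ribosomal protein genes. For the respiratory chain it was 53 of 76 and for the proteasome 24 of 34. Macrophage, stellate, cholangiocyte and lymphocyte markers had no peak with PPARα either, and 3 of 16 endothelial markers did. The lists were drawn up with earlier results of these data known.

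The 10 peaks at the 9 immediate early genes had log2 differences of -1.37 to -0.21 in Ppara KO liver on the total-tag scale (median -0.81, and 0.10 with TMM), and none passed the test. At 4 of them all KO livers were below all WT livers, an order that 31.3% of all rows had. At Junb, 1005 bp from the nearest PPARα peak, the levels were 26.4, 37.7 and 23.1 in WT and 14.6, 22.7 and 10.8 in KO. At Atf3, 4 bp from one, they were 14.6, 11.7 and 16.2 against 8.74, 7.57 and 3.61. At Jun and Ier2 the groups overlapped, with 27.1, 19.5 and 12.3 against 13.8, 16.6 and 13 at Jun.

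Peaks also lay at metabolic genes, and those named here had the highest WT levels of their lists, which favours high WT values. Angptl4, a classical PPARα target, had 16.7, 16.9 and 20 in WT and 8.74, 6.81 and 5.05 in KO at its promoter peak, 1563 bp from the nearest PPARα peak. The groups did not overlap and the log2 difference of -1.37 ± 0.58 missed the threshold (edgeR adjusted p = 0.176). Acly, the ATP citrate lyase gene, had 32.6, 17.6 and 18.5 against 9.47, 14.4 and 14.4, and Ass1, a urea cycle gene, had 32.6, 30.6 and 27.7 against 14.6, 17.4 and 18, both with separate groups. At Acsl1, which activates fatty acids, the KO values of 16.7, 19.7 and 19.5 lay within the WT range of 16.7 to 31.6. Bhlhe40 (a clock repressor) had 20.1, 11.7 and 16.9 in WT and 16.7, 18.9 and 13.7 in KO, a log2 difference of 0.02 ± 0.55.

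Of the 2126 peaks, the 635 (29.9%) that were called in the Gps2 WT library could also be read in the 1 library from Gps2 LKO liver, and the others were not measured there. In the table of both livers 636 rows overlapped the peaks, and their tags went from 12208 in WT to 509 in LKO, or from 7880 to 344 per 10000000, which left 4.37%. The rows entered the table through peaks called in WT, so lower LKO values follow from how they were chosen, and 309 held no tag in LKO. The rows that overlapped only peaks with PPARα kept 3.11%. Here and below, a row that overlapped both kinds of peak was counted with the peaks without PPARα. Dusp1 had 71 tags in WT and 0 in LKO, Tat 48 and 0, Angptl4 35 and 2 and Junb 31 and 2. With 1 library a group there was no test.

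In the Ncor line, 756 rows of the GPS2 table overlapped the peaks. The lists held 46157, 34941 and 13863 peaks in WT and 13260, 14182 and 9563 in LKO. Lower LKO values can here too follow in part from how rows were chosen. Median levels were 8.84, 9.15 and 3.75 in WT 1 to 3 and 3.45, 4.13 and 3.12 in the LKO livers, so that WT 3 lay next to the LKO values. A total of 2 rows were called lower (0.265%, against 0.0338% of all rows) and 0 higher. Both lay beside 9130024F11Rik and rested on WT 1, with 68.5 against 4.99 and 3.22 in the other WT livers and 3.45, 1.77 and 3.64 in LKO at one of them. The median log2 difference was -1.01, and -1.12 over all rows, but 0.06 and -0.04 with TMM. Without WT 3, 413 rows (54.6%) were called lower, against 59.1% of all rows. At Dusp1 the levels were 37.6, 31.6 and 20.4 in WT and 9.36, 15.4 and 11.4 in LKO (-1.31 ± 0.62, edgeR adjusted p = 0.126), with no overlap. At Malat1 they were 16.6, 17.5 and 13.4 against 3.45, 5.91 and 3.64 (-1.86 ± 0.67, edgeR adjusted p = 0.0806).

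NCOR was counted in the same Ppara line at 1026 rows that overlapped the peaks. Some of these rows may also overlap a peak with PPARα, and such rows were not separated. Median NCOR levels were 13, 12.9 and 13.5 in WT and 10.6, 11.4 and 7.12 in KO livers. At rows that overlapped only peaks with PPARα they were 36.1 to 43 and 24.2 to 34.3. A total of 28 rows (2.73%, against 2.51% of all rows) were called lower in KO and 0 (against 0.136%) higher by edgeR. The share called lower was near that of the whole table. At rows that overlapped only peaks with PPARα it was 4.63% (1232 of 26588). TMM called 9 lower (0.877%, against 1.05% of all rows) and DESeq2 3 (0.292%, against 0.393%). By edgeR 10 (0.975%) were lower without WT 3 (against 0.989%) or without KO 3 (against 1.22%), and 11 (1.07%, against 1.32%) without WT 1. A called row singled out after its values were seen lay 78149 bp past the start of Tgfbr2, a TGF-beta receptor, and read 71.5, 72.2 and 112 in WT and 20.4, 26.9 and 26.3 in KO. It fell by 1.78 ± 0.25 on the log2 scale (edgeR adjusted p = 2.17e-09). At Sirt4, where the U4 gene lies, NCOR read 15.4, 12.9 and 10.1 in WT and 17.2, 14.1 and 9.96 in KO, with overlap.

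Loss of Gps2 left no called change of NCOR at 916 such rows (edgeR, 0 lower and 0 higher, against 0.00495 and 0.0124% of all rows). At an unadjusted p under 0.05, 3 were lower and 8 higher, TMM called 1 lower (0.109%, against 0.158% of all rows) and DESeq2 0. At the U4 gene near Sirt4 the NCOR levels were 9.95, 7.12 and 6.96 in WT and 10.3, 10.3 and 8.14 in LKO, with overlap.

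H3K27ac, the mark of active promoters and enhancers, was counted in 2 WT and 2 Gps2 LKO livers at 1569 rows that overlapped the peaks. Some of these rows may also overlap a peak with PPARα, and such rows were not separated. Of the 1569 rows, 10 were called higher (0.637%, against 1.21% of all rows) and 3 lower (0.191%, against 0.212%) by edgeR. At rows that overlapped only peaks with PPARα, 1.94% were called higher and 0.323% lower. The median log2 difference over the 1569 rows was 0.02 (-0.03 with TMM), against 0.06 over the table. The higher rows, named after their values were seen, included one near Elovl5, a fatty acid elongase, which rose from 820 and 860 in WT to 1240 and 1240 in LKO (0.56 ± 0.08, edgeR adjusted p = 0.0224). Rows near the carboxylesterase Ces1c (692 and 644 to 951 and 916) and Cyp2c68 (87.1 and 91.2 to 210 and 148) also rose. Of the lower ones that near Zfp445 went from 2030 and 1510 to 884 and 606. At Dusp1 H3K27ac read 1480 and 1460 in WT and 1510 and 1570 in LKO, and at Zfp36 it read 3160 and 3070 against 3210 and 3240, differences that did not pass the test. Without WT 1 or without WT 2 the counts were 0 higher and 0 lower. Without LKO 1, 33 were higher (2.1%, against 4.05% of all rows) and 45 lower (2.87%, against 2.33%), and without LKO 2, 36 were higher (2.29%, against 3.18%) and 8 lower (0.51%, against 0.42%).

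Genes beside the peaks were highly expressed. A total of 868 genes had a start within 1000 bp of a peak, 838 were in the RNA table and 812 passed the filter on low counts. Of the 838, 319 also had a GPS2 peak with PPARα within 1000 bp. Among the 812, 500 had no such second peak. Their median expression per kilobase in WT liver stood at the percentile 71.5 of all genes tested, against 62.5 for the 5566 genes near only peaks with PPARα and 32.0 for the 5842 genes with no GPS2 peak. For the 308 genes beside a recurrent peak it was 82.7.

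In Gps2 LKO liver 205 of the 812 genes rose (25.2%, against 23.4% of all 12220 genes tested) and 207 fell (25.5%, against 21.4%), with a median log2 change of 0.02. The LKO 2 library stood apart: pairs of LKO libraries that included it differed by a chi-square per degree of freedom over genes of 18.6 to 27.3, against 1.51 to 9.33 for the other LKO pairs and 1.65 to 2.43 for WT pairs. Without LKO 2, 263 rose (32.3% of those tested, against 27.8% of all genes) and 265 fell (32.6%, against 28.8%). Of the 500 genes among the 812 with no peak with PPARα within 1000 bp, 26.6% rose and 23.0% fell. Among genes near only peaks with PPARα, 19.9% rose and 25.9% fell. Beside these counts, 15 of 17 macrophage markers and 14 of 14 stellate markers tested rose in the same livers, their summed counts going from 3160 to 3210 up to 4420 to 5360 and from 3820 to 4040 up to 7300 to 7500, and 6 of 16 endothelial markers rose (4250 to 4420 up to 4880 to 5130). Of the cholangiocyte markers 4 of 7 tested rose (1050 to 1120 up to 1510 to 1820), and of the lymphocyte markers 3 of 6 rose and 1 fell (198 to 237 up to 327 to 409). Of the hepatocyte markers 11 of 20 rose and 2 fell, with sums of 3610000 to 4180000 in LKO. The part of other cell types in the changes was not tested.

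The largest rises among genes with a mean of at least 100 normalised counts were of Pnpla3, a lipid droplet lipase, and Angptl8, a regulator of lipoprotein lipase. Pnpla3 read 149, 130, 160 and 123 normalised counts in WT and 865, 1040, 926 and 922 in LKO, and rose by 2.73 ± 0.10 (log2, SE; edgeR adjusted p = 9.9e-11). Angptl8 read 552, 593, 535 and 537 against 3080, 2330, 3340 and 2940. G0s2, an inhibitor of adipose triglyceride lipase, rose by 1.90, Mgst3 by 1.69 and the Notch target Hes1 by 1.58, with edgeR adjusted p of 1.16e-08, 6.82e-08 and 9.65e-06. The choice of these 5 required a passed test and separate groups.

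The largest falls were of Mup7, a major urinary protein gene, which read 5750, 6260, 6580 and 6270 in WT and 858, 754, 904 and 802 in LKO and fell by 2.91 ± 0.07 (edgeR adjusted p = 1.97e-12). Mup genes are near-identical copies, so the reads of 1 of them are uncertain. Il1r1, the interleukin 1 receptor, fell by 1.16, the clock gene Clock by 1.15, the endoplasmic reticulum stress gene Creld2 by 1.14 and Lifr, the receptor of leukaemia inhibitory factor, by 1.05. Clock read 488, 517, 495 and 491 in WT and 187, 289, 214 and 197 in LKO. As for the rises, the choice of these genes required a passed test and separate groups.

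The 9 immediate early genes with a peak split: Atf3, Klf10, Ier2, Dusp1 and Jun rose, Myc fell, and Zfp36, Egr1 and Junb did not pass the test. In the whole list 11 of 20 genes tested rose and 2 fell. Atf3, a stress-induced factor, read 37.1, 26.2, 33.0 and 31.1 in WT and 89.4, 87.3, 81.9 and 71.3 in LKO (1.38 ± 0.15, edgeR adjusted p = 7.88e-06). Klf10, a TGF-beta-induced repressor, rose by 1.33 and Dusp1 by 0.54. Zfp36, which has a strong promoter peak, read 1770, 1760, 1810 and 1640 against 1850, 1790, 1840 and 1910, a difference of 0.08 ± 0.06 (edgeR adjusted p = 0.272), and the groups overlapped.

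Of the 6 lipogenic genes with a peak, Pnpla3, Acly, Fasn and Srebf1 rose and 0 fell, and in the whole list 14 of 20 rose and 1 fell. Fasn read 31200, 32200, 31200 and 28800 in WT and 42300, 62100, 55000 and 40100 in LKO (0.69 ± 0.11, edgeR adjusted p = 3.47e-04). Of the 6 PPARα targets with a peak G0s2 rose, Acsl1, Angptl4 and Mgll fell and Cpt1a and Ehhadh did not pass, against 21 rises and 8 falls among 38 targets tested. Angptl4 read 1330, 1340, 1310 and 1300 in WT and 1130, 972, 950 and 1090 in LKO. Ribosomal protein genes rose in 8 of the 9 with a peak that were tested and in 53 of 65 overall. Genes at the other strong peaks included Ass1, which rose by 1.27, Tat, which rose by 0.17, and Malat1, which fell by 1.04 (edgeR adjusted p = 6.76e-07, 0.0118 and 1.82e-07).

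**Figure D5:**
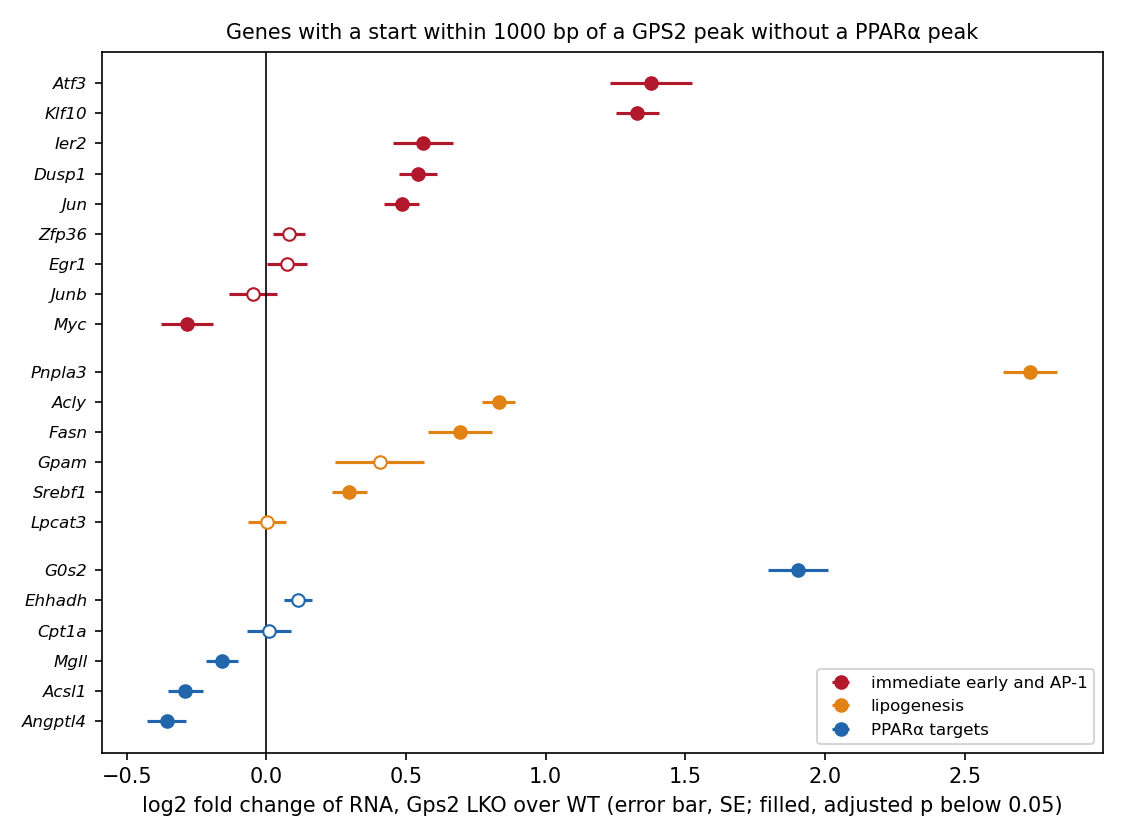
Log2 fold change of RNA in Gps2 LKO over WT liver (horizontal axis) for genes of 3 lists with a start within 1000 bp of a GPS2 peak without a PPARα peak; dots are edgeR estimates from 4 against 4 livers, bars SE, and filled dots pass adjusted p of 0.05. Pnpla3 (2.73), G0s2 (1.90) and Atf3 (1.38) lie farthest to the right and Angptl4 (-0.36) farthest to the left.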

How the data were processed

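The authors aligned ChIP-seq reads to mm9 with Bowtie and called peaks per library with HOMER. The deposited peak lists carry a constant score of 1, so only their positions were used. The authors merged the lists of a comparison and deposited raw tag counts per merged peak and, for RNA-seq, raw read counts per gene. GPS2 peaks that shared 1 bp with no PPARα peak were found with bedtools 2.31.1. The members, gene lists and tests were chosen with earlier results of these data known.

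Counts were fitted over whole tables in edgeR 4.0.16 (R 4.3.3, quasi-likelihood test, Benjamini-Hochberg, threshold 0.05), scaled to total mapped tags for ChIP-seq and by TMM for RNA. Rows needed at least 1 tag, and genes had to pass filterByExpr. The share of tags was tested by exact permutation over libraries. Intervals are 95% Clopper-Pearson and cover counting error only. Motifs were searched in the mm9 reference sequence. Alternatives were TMM or DESeq2 1.42.0 scaling, other filters, other PPARα rules, replicate blocks and leaving libraries out. Input libraries were not used.

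Named peaks were the 6 with the highest WT level within 1000 bp of a start and the 6 farther away, the 3 smallest p with a mean of at least 20 tags and separate groups, and up to 3 per gene list within 10000 bp. Named genes were those within 1000 bp of a named peak and the 5 largest rises and 5 largest falls. These rises and falls had to pass the test, with separate groups and a mean of at least 100 normalised counts. The immediate early peaks and the list genes with a peak were named in addition. The scripts were tested on simulated data. Some results are not reported here.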

Additional observations from a re-analysis of the deposited data

Results flagged for a closer look

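In 7 of 108 groups of 4 RNA libraries of named genes 1 library lay far from the other 3, where chance gives about 5 percent of groups. In Gps2 LKO 2, G0s2 read 954 normalised counts against 1290 to 1330 in the other LKO livers, Rpl13a 2680 against 3640 to 3730 and Onecut2 1950 against 1390 to 1480. Ciart read 355 in LKO 1 against 310 to 315, Srebf1 12000 in LKO 3 against 10400 to 10600 and Myc 192 in LKO 4 against 214 to 216. Hnrnpc read 582 in WT 3 against 643 to 648.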

How the results depend on the processing

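For GPS2 in Ppara KO liver, 0 of the 2126 peaks were called lower, against 0.273% of all rows. Other PPARα rules gave wider sets of peaks. When a PPARα peak had to be in 2 lists, 1 of 3279 (0.0305%) was lower. It was 9 of 17868 (0.0504%) when only the Ppara line's lists counted. Without WT 3 and KO 3, chosen after seeing the data, 11 of the 2126 were lower (0.517%, against 0.399%). The 0 called higher became 4 with TMM (0.188%, against 0.0539%) and 1 with DESeq2 (0.047%, against 0.018%). Of the 50 named peaks, 31 had the opposite sign with TMM and with DESeq2, and none of those passed the test. The share of tags differed by 0.288 to 1.31 percentage points with 1 library left out, by -0.185 without WT 3 and KO 3, and by 4.32 (exact permutation p = 0.1) with only the Ppara line's PPARα lists. For GPS2 in Ncor LKO liver, 2 lower became 18 with filterByExpr (4.97%, against 6.82% of all rows) and 1 with DESeq2 (0.132%, against 0.117%). With 1 library left out 0 to 413 were lower, the 413 (54.6%, against 59.1%) without WT 3. The 0 higher became 8 with TMM (1.06%, against 1.78%) and 5 with DESeq2 (0.661%, against 0.7%). For NCOR in Ppara KO liver, 28 lower (2.73%, against 2.51%) became 9 with TMM (0.877%, against 1.05%) and 3 with DESeq2 (0.292%, against 0.393%). With 1 library left out 10 to 31 were lower, the 31 (3.02%, against 2.39%) without KO 2. The 0 higher became 1 with TMM (0.0975%, against 0.759%) and 0 to 1 with 1 library left out. For NCOR in Gps2 LKO liver, 0 lower became 1 with TMM (0.109%, against 0.158%). For H3K27ac, 3 lower became 5 with TMM (0.319%, against 0.206%) and 16 with DESeq2 (1.02%, against 0.388%). With 1 library left out 0 to 45 were lower (the 45 being 2.87%, against 2.33%). The 10 higher became 0 to 36 (the 36 being 2.29%, against 3.18%). The RNA count of 205 higher ranged over 167 (20.5%, against 19.2% of all genes) to 263 (32.3%, against 27.8%). That of 207 lower ranged over 155 (19.1%, against 16.7%) to 265 (32.6%, against 28.8%). The causes were not tested.

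Same-numbered libraries did not deviate together in every pair (correlations of -0.273 to 0.335), so they share only a number. With the replicate block the share differed by 0.9 points (exact permutation p = 1.0). The calls were 111 lower for GPS2 in Ncor LKO (14.7%, against 18.6% of all rows) and 15 lower for NCOR in Ppara KO (1.46%, against 1.62%). For NCOR in Gps2 LKO 1 was lower (0.109%, against 0.155%). For H3K27ac 26 were lower (1.66%, against 1.0%) and 38 higher (2.42%, against 4.23%).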
